A study of Rattus norvegicus with 16 samples.

Results

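MiR-221 and miR-222 were followed here across kidney and blood plasma of rats that received iodinated contrast medium or saline. Both were found by their names on the array, rno-miR-221 and rno-miR-222, and are 2 of the 350 rat miRNAs it reads. Each was read by 2 probes with 10 spots per probe. Both were detected on all 8 kidney arrays, while in plasma miR-221 was detected on 7 of 8 arrays and miR-222 on 6 of 8.

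MicroRNAs are short RNAs that pair with target mRNAs through a seed near their 5′ end and lower the output of those targets. MiR-221 and miR-222 are processed from neighbouring precursors on the X chromosome and carry the same seed. In mammals they are known from endothelium and vascular smooth muscle, where they lower the stem cell factor receptor KIT and the cell cycle inhibitor p27 (CDKN1B), and from red cell precursors, where they also lower KIT.

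The mature strands are shown because the shared seed and the differing remainder set what each can pair with. Capitals mark the seed, bases 2 to 8 from the 5′ end. The sequences are RefSeq's on GRCr8, and both members were matched.

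rno-miR-221-3p: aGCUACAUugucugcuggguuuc
rno-miR-222-3p: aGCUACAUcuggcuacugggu

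MiR-221-3p, 23 bases long, lies at chrX:6023246-6023268 on the plus strand, and miR-222-3p, 21 bases long, at chrX:6022682-6022702 on the same strand. Their first 8 bases were identical, and the longest run they shared after that was the 6 bases CUGGGU, which starts at base 15 of miR-221-3p and base 16 of miR-222-3p. Among the 724 rat mature miRNAs in the RefSeq table, these 2 alone carried this seed. The names on the array give no arm; they are the older names of the 3p strands. Probe sequences were not used here, and whether a probe of one also binds the other was not tested.

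The precursors are shown to place the pair beside each other, with the mature 3p strand in capitals.

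Mir222: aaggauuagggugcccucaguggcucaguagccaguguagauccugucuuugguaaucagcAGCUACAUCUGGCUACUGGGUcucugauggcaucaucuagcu
Mir221: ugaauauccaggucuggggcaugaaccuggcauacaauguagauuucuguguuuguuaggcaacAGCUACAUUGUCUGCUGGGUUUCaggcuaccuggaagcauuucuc

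Mir222 spans chrX:6022621-6022723 and Mir221 chrX:6023182-6023290, with 458 bases between them.

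All 24 rats were male Sprague-Dawley animals that went 3 days without water and then received the diuretic furosemide at 10 mg/kg into muscle, so the controls were dehydrated and drug-treated too. The contrast-induced acute kidney injury (CI-AKI) rats then received Omnipaque, a nonionic low-osmolar medium with 350 mg iodine per ml, at 10 ml/kg through the tail vein, and control rats the same volume of saline. Samples were taken 8 h later. RNA of 3 rats was combined in each pool, which gave 4 pools in each of kidney CI-AKI, kidney control, plasma CI-AKI and plasma control, with 1 array per pool. The spread between pools is thus a spread between means of 3 rats, and the labels give no measure of kidney function.

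Some arrays and labels stood apart. Pool 4 of both plasma groups had 84 to 95 detected miRNAs, against 156 to 211 on the other 6 plasma arrays and 169 to 216 on the kidney arrays. An RNA added before labelling read 78.6 to 217 there and 1782 to 4582 on the other 14 arrays. The samples also carry 8 letter codes, each used once per tissue. The labels give 6 of these letters opposite treatments in the 2 tissues and 2 the same. What a letter marks is not stated, so values of the treatment comparisons are also given with the treatment that the other tissue's labels attach to each letter. The plasma arrays lay on one slide and the kidney arrays on the other, so tissue and slide cannot be told apart. On both slides control and CI-AKI pools alternated by column, so treatment and column cannot be told apart either.

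The tissue labels were checked with lists of known marker miRNAs. All 7 kidney epithelium miRNAs (such as miR-192, miR-194, miR-200a and miR-200b) were detected on every kidney array, and 2 of 7 on every array of each plasma group. Their summed scaled signal was 2684 to 3037 in kidney pools and 502 to 1321 in plasma pools. The summed signal of the 3 erythroid miRNAs (miR-451, miR-144 and miR-16) was 792 to 898 in kidney pools and 5275 to 17190 in plasma pools, and that of the 5 leukocyte miRNAs 415 to 536 in kidney and 3612 to 8014 in plasma. Of the 2 platelet miRNAs, miR-223, which also stands in the leukocyte list, was detected on all kidney arrays and miR-191 on none. Blood cell miRNAs therefore moved with tissue, and their part in the differences between kidney and plasma given below was not tested.

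The first question was whether the pair differed in the kidney 8 h after contrast medium. Neither passed the test. The signals below are spot signals averaged per miRNA and divided by each array's 75th percentile, which puts the arrays of a tissue on one scale with arbitrary units. The signal of one member is not compared with that of the other, because different probes read them.

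In kidney, miR-221 had scaled signals of 99.0, 96.5, 90.9 and 81.0 in CI-AKI pools 1 to 4, against 95.6, 99.1, 113.6 and 85.3 in control pools 1 to 4. The groups overlapped, with the highest value in control pool 3 and the lowest in CI-AKI pool 4. The means were 91.9 ± 8.02 in CI-AKI kidneys and 98.4 ± 11.7 in control kidneys (SD, n = 4 each), a log2 difference of -0.10 (SE 0.10, 95% confidence interval -0.32 to 0.13). In limma with Benjamini-Hochberg adjustment over all 176 tested kidney miRNAs the adjusted p was 0.917. Of these 176, 3 passed (1.70%), all higher, and the groups did not overlap for 5.11%.

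MiR-222 had scaled signals of 23.7, 18.8, 21.3 and 18.9 in CI-AKI kidney pools 1 to 4, against 22.1, 18.8, 21.4 and 18.6 in control pools 1 to 4. CI-AKI and control pools of the same number lay close to each other and the groups overlapped throughout. The means were 20.7 ± 2.32 in CI-AKI kidneys and 20.2 ± 1.78 in control kidneys (SD, n = 4 each), a log2 difference of 0.03 (SE 0.10, 95% confidence interval -0.19 to 0.25, limma adjusted p = 0.957). The intervals bound the change in kidney at folds of 0.799 to 1.10 for miR-221 and 0.878 to 1.19 for miR-222. In bulk RNA, fewer cells of a type and less RNA per cell cannot be told apart.

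**Figure D1:**
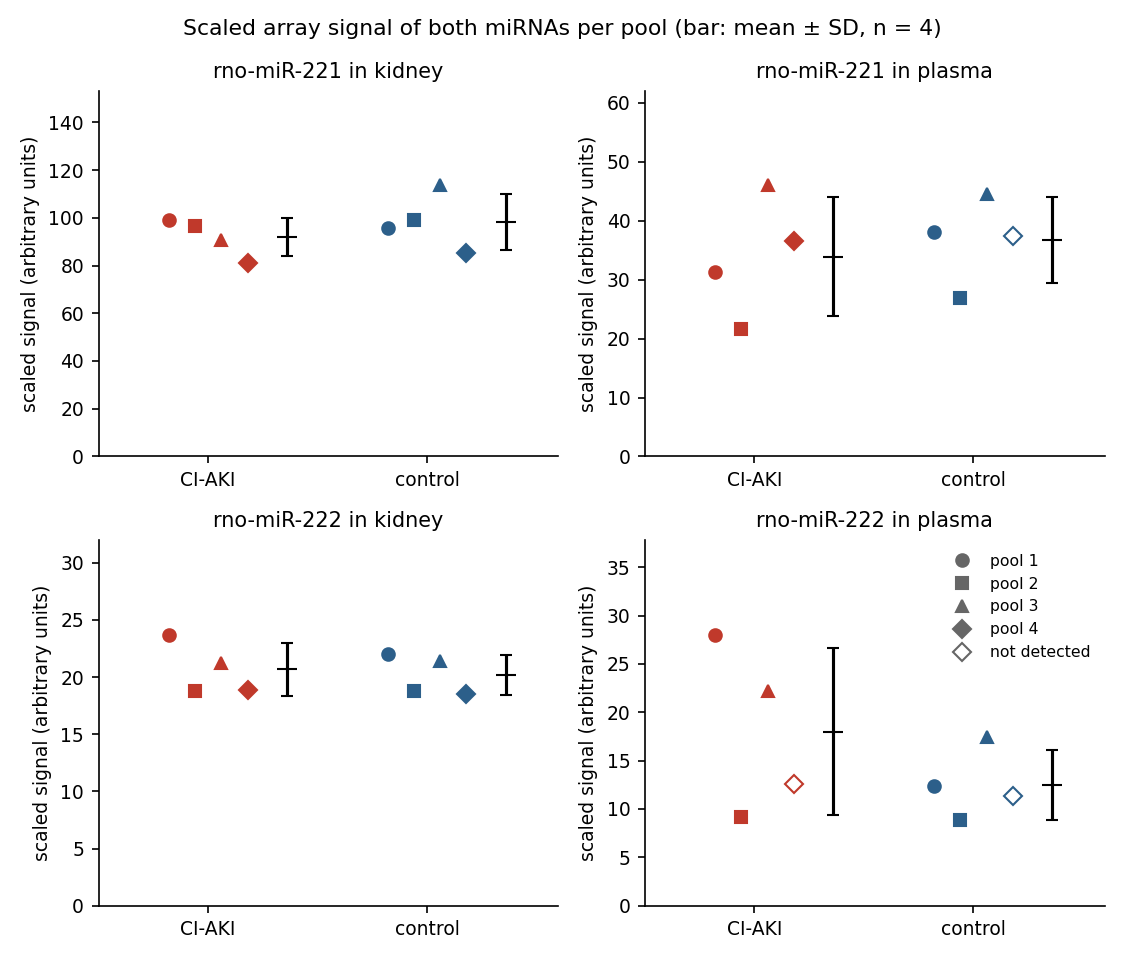
Scaled array signal (vertical axis, arbitrary units, a separate scale for each panel) of miR-221 (upper row) and miR-222 (lower row) in kidney (left) and plasma (right), with CI-AKI pools left of control pools. Each symbol is 1 pool, hollow where the miRNA was not detected, and bars give the mean ± SD of 4 pools; CI-AKI and control pools overlapped in all 4 panels.

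Both probes of miR-221 gave the same kidney difference, -0.10 (SE 0.11 each) on the log2 scale. The probes of miR-222 gave -0.07 (SE 0.13) and 0.09 (SE 0.09), of opposite sign. Within the upper slide row, which held pools 1 and 2, the log2 difference was 0.01 for miR-221 and 0.05 for miR-222. Within the lower row, with pools 3 and 4, it was -0.20 for miR-221 and 0.01 for miR-222. With the other tissue's letters deciding treatment, the log2 differences were 0.06 for miR-221 (limma adjusted p = 0.951) and -0.02 for miR-222 (adjusted p = 0.961).

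The same question was asked in plasma, where the spread between pools was larger. The median SD within groups over the tested miRNAs was 0.13 on the log2 scale in kidney and 0.51 in plasma. Neither member of the pair passed the test there, and miR-222 was too seldom detected to enter the fit over all miRNAs.

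Plasma miR-221 had scaled signals of 31.3, 21.7, 46.0 and 36.6 in CI-AKI pools 1 to 4, against 38.2, 27.0, 44.6 and 37.4 in control pools 1 to 4, of which control pool 4 was not detected. Pool 3 was the highest and pool 2 the lowest in both groups, and the groups overlapped. The means were 33.9 ± 10.2 in CI-AKI plasma and 36.8 ± 7.29 in control plasma (SD, n = 4 each). The log2 difference was -0.15 (SE 0.30, 95% confidence interval -0.81 to 0.52, limma adjusted p = 0.951), with 0 of 96 tested plasma miRNAs called (0%), 5 at an unadjusted p under 0.05 and non-overlapping groups for 5.21%. Without pool 4 of both groups the log2 difference was -0.18 with the scaling of all 8 arrays kept (limma adjusted p = 0.909), an alternative chosen after the data were seen, and 0.07 with the remaining arrays scaled anew, over another set of miRNAs (adjusted p = 0.95). With the other tissue's letters it was 0.13 (adjusted p = 0.934).

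MiR-222 in plasma had scaled signals of 28.0, 9.22, 22.2 and 12.6 in CI-AKI pools 1 to 4, against 12.4, 8.87, 17.5 and 11.3 in control pools 1 to 4; pool 4 was not detected in either group. CI-AKI pools 1 and 3 lay above all control pools and pools 2 and 4 within their range. The means were 18.0 ± 8.67 in CI-AKI plasma and 12.5 ± 3.61 in control plasma (SD, n = 4 each), a log2 difference of 0.43 (p = 0.286 in the two-sided exact permutation test). The smallest p that 70 labellings of 4 against 4 arrays can give is 0.0286. Within plasma pools of the same number miR-222 was higher in CI-AKI in 4 of 4 pairs, by 1.17, 0.06, 0.35 and 0.15 on the log2 scale in pools 1 to 4, the last pair undetected. The exact sign-flip permutation test over these pairs, added after the data were seen, gave p = 0.125, the smallest that 4 pairs can give. Without pool 4 of both groups, which left miR-222 detected on all arrays, the log2 difference was 0.53 with the scaling kept (limma adjusted p = 0.691) and 0.78 with the arrays scaled anew (adjusted p = 0.361). With the other tissue's letters it was -0.36 in place of 0.43.

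The probes of plasma miR-221 gave log2 differences of 0.06 (SE 0.32) and -0.29 (SE 0.27), and those of miR-222 0.32 (SE 0.44) and 0.51 (SE 0.42). The probes of miR-221 thus pointed in opposite directions; without pool 4 and with the scaling kept, both were negative, at -0.15 and -0.20. Spots of a probe varied little on most arrays: the median coefficient of variation over the 14 arrays other than plasma pool 4 was 7.67% and 4.80% for the probes of miR-221 and 14.4% and 8.18% for those of miR-222. On the 2 arrays of plasma pool 4 it was 85.7%, 28.0%, 96.4% and 107%. Within the upper slide row the plasma log2 difference was -0.30 for miR-221 and 0.62 for miR-222, and within the lower row 0.01 and 0.25.

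**Figure D2:**
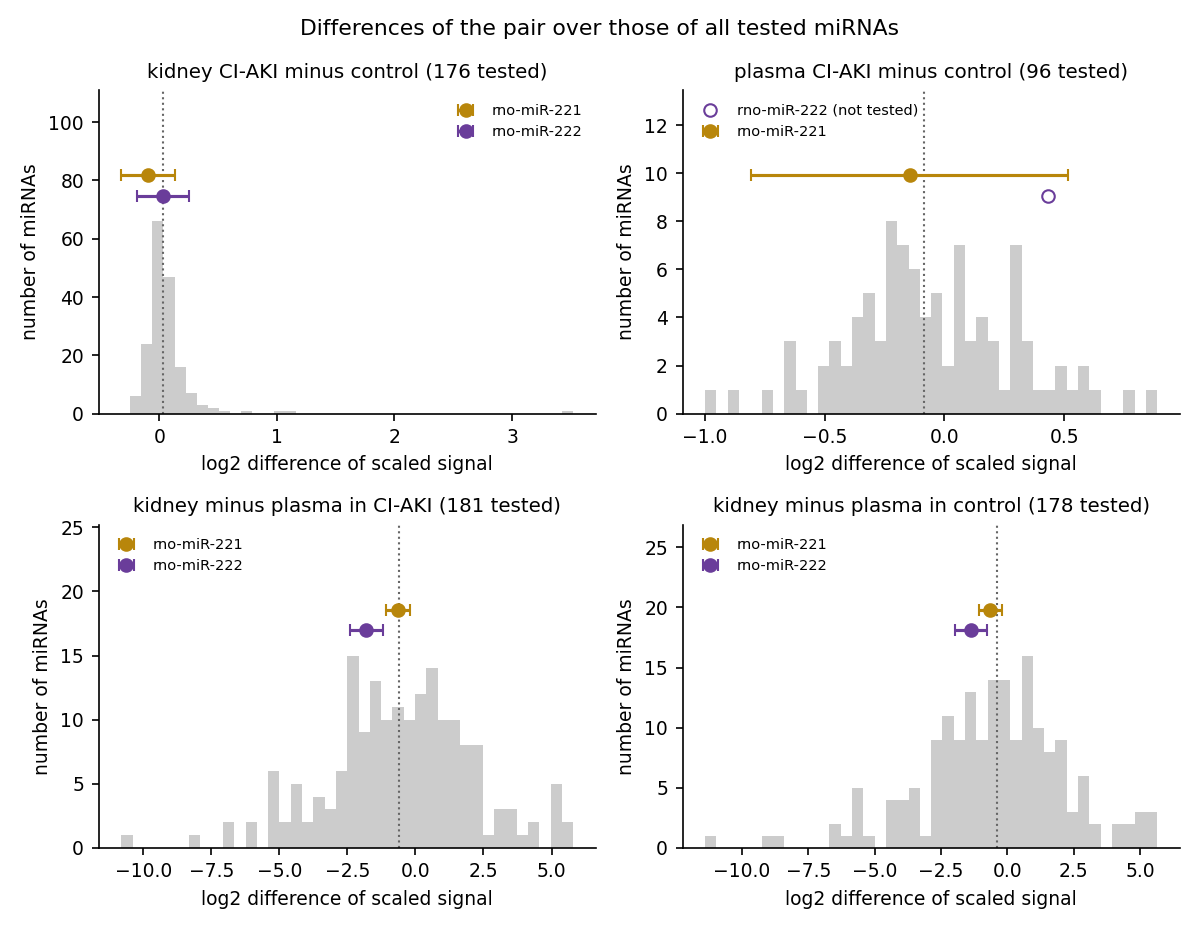
Log2 differences of miR-221 and miR-222 (points with 95% confidence intervals) above a histogram of the log2 differences of all tested miRNAs (grey, number of miRNAs on the vertical axis; dotted line, their median), for CI-AKI minus control in kidney and plasma and for kidney minus plasma in CI-AKI and control pools. The hollow point was not tested in the fit over all miRNAs; both intervals of the kidney treatment comparison and that of plasma miR-221 span 0.

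Whether the contrast effect differed between tissues was tested directly. For miR-221 the effect in kidney minus that in plasma was 0.0031 on the log2 scale (SE 0.28, 95% confidence interval -0.59 to 0.60, limma adjusted p = 0.991), where 1 of 87 tested miRNAs was called (1.15%). For miR-222 it was -0.45 (exact permutation test over 4900 labellings, two-sided, p = 0.304), and without plasma pool 4 it was -0.55 with the scaling kept (limma adjusted p = 0.629) and -0.72 with the arrays scaled anew (adjusted p = 0.527). No difference in effect was thus detectable for either at this number of pools, and the interval of miR-221 leaves room for one of about 0.6 either way.

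Kidney was set against plasma next, on one scale over all 16 arrays, within each treatment. On this scale both members were lower in kidney, and miR-222 by more than miR-221. Most miRNAs differed between the tissues: 74.6% of 181 tested passed in CI-AKI pools and 77.5% of 178 in control pools, with 45.3% lower and 29.3% higher in kidney in CI-AKI pools and 44.9% lower and 32.6% higher in control pools.

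In CI-AKI pools, miR-222 had scaled signals of 11.2, 9.10, 10.74 and 8.79 in kidney, against 57.8, 20.7, 45.8 and 26.0 in plasma. Control kidneys had 10.4, 9.05, 10.1 and 9.37, against 25.7, 18.3, 34.7 and 23.3 in control plasma. Pool 4, the last value, was not detected in either plasma group. All kidney pools lay below all plasma pools in both treatments; tissues did not overlap for 71.8% of tested miRNAs in CI-AKI and 78.7% in control pools either. The log2 difference, kidney minus plasma, was -1.80 (SE 0.28, limma adjusted p = 2.99e-05) in CI-AKI pools, with means of 9.96 ± 1.20 in kidney and 37.6 ± 17.3 in plasma. It was -1.35 (SE 0.28, limma adjusted p = 0.000463) in control pools, with means of 9.72 ± 0.617 in kidney and 25.5 ± 6.89 in plasma (SD, n = 4 each). Without pool 4 of both plasma groups and with the scaling kept it was -1.94 in CI-AKI pools (limma adjusted p = 1.26e-05) and -1.38 in control pools (adjusted p = 0.000374). With the remaining arrays scaled anew it was -1.79 (adjusted p = 9.61e-05) and -1.07 (adjusted p = 0.00599).

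MiR-221 had scaled signals on this scale of 46.9, 46.7, 45.9 and 37.6 in CI-AKI kidney pools, against 64.6, 48.7, 94.8 and 75.8 in CI-AKI plasma pools. In control pools it had 45.0, 47.7, 53.6 and 43.1 in kidney, against 78.8, 55.5, 88.7 and 77.1 in plasma. Kidney and plasma pools did not overlap in either treatment, but plasma pool 2 came close to the kidney pools in both. The log2 difference, kidney minus plasma, was -0.65 in each (SE 0.20 each, limma adjusted p = 0.00982 in CI-AKI and 0.00956 in control pools). Without pool 4 of both plasma groups and with the scaling kept it was -0.60 in CI-AKI pools (limma adjusted p = 0.0198) and -0.63 in control pools (adjusted p = 0.0153), and passed in both. With the remaining arrays scaled anew it was -0.45 in CI-AKI pools (adjusted p = 0.0933) and -0.31 in control pools (adjusted p = 0.232), and did not pass.

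These directions depended on how kidney and plasma arrays were put on one scale. The difference of miR-221 in CI-AKI and control pools was 0.26 and 0.16 after quantile normalization and 0.22 and 0.31 in the authors' deposited values, and did not pass there. That of miR-222 was -0.69 and -0.07 after quantile normalization and -0.46 and -0.01 in the authors' deposited values, again short of the threshold, and without scaling it was 0.38 and 0.48. The median over all tested miRNAs moved with the scaling as well; as scaled here it was -0.59 in CI-AKI and -0.40 in control pools. Relative to this median miR-222 was at -1.21 and -0.96, and miR-221 at -0.06 and -0.25. Under the 8 other settings compared, miR-222 relative to the median was at -1.37 to -0.285 in CI-AKI pools and -0.96 to -0.34 in control pools, while miR-221 was at -0.31 to 0.18 and -0.42 to 0.03.

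Each of the 4 probes was lower in kidney on the common scale. In CI-AKI pools the probes of miR-222 gave -1.98 (SE 0.38) and -1.69 (SE 0.35), and those of miR-221 -0.75 (SE 0.27) and -0.56 (SE 0.22). In control pools they gave -1.54 (SE 0.22) and -1.22 (SE 0.20) for miR-222, and -0.54 (SE 0.17) and -0.71 (SE 0.17) for miR-221.

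**Figure D3:**
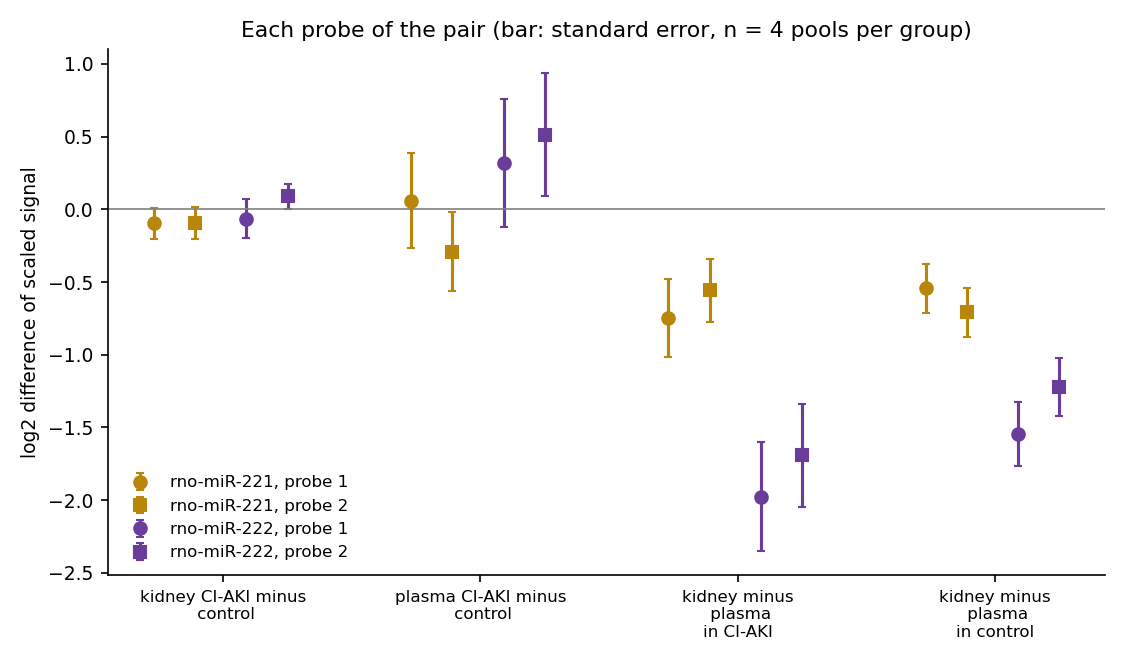
Log2 difference of scaled signal (vertical axis) for each probe of miR-221 and miR-222 in 4 comparisons, with bars for the standard error over 4 pools per group. Both probes of miR-222 lie below both probes of miR-221 in the kidney minus plasma comparisons, and treatment differences lie near 0 in kidney and have wide bars in plasma.

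Scaling cancels in the ratio of miR-221 to miR-222 on the same array, so the ratio was compared between groups. Its size says nothing of which miRNA is more abundant, because the probes differ, and a change in it shows unequal change only. The ratio was 4.17, 5.13, 4.27 and 4.28 in CI-AKI kidney pools 1 to 4, against 1.12, 2.36, 2.07 and 2.91 in CI-AKI plasma pools 1 to 4. Control kidneys had ratios of 4.34, 5.27, 5.32 and 4.60, against 3.07, 3.04, 2.55 and 3.31 in control plasma. All 8 kidney arrays thus stood above all 8 plasma arrays.

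The log2 ratio in kidney minus plasma was 1.16 (SE 0.31) in CI-AKI pools, a 2.23-fold ratio, and 0.71 (SE 0.11) in control pools, a 1.63-fold ratio. The exact permutation test, two-sided, gave p = 0.0286 for each, the smallest it can give, and 0.0571 after Benjamini-Hochberg adjustment over the 4 comparisons of the ratio, which did not pass 0.05. Under this adjustment they could not pass unless a treatment comparison also reached that smallest p. Among all pairs of tested miRNAs the ratio separated the tissues without overlap in 72.3% of pairs in CI-AKI and 76.8% in control pools, so the separation is not particular to this pair. Without plasma pool 4 the differences were 1.34 and 0.76, and 79.9% and 86.0% of all pairs were separated. All 4 combinations of 1 probe of each miRNA gave the same direction, from 0.95 to 1.42 in CI-AKI and 0.51 to 1.0 in control pools. Other ways of processing do not cancel in the ratio. Over them the difference kept its sign but fell as low as 0.46 in CI-AKI and 0.32 in control pools.

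Between treatments the ratio overlapped in both tissues; among all pairs of tested miRNAs it did not overlap in 6.90% of pairs in kidney and 1.71% in plasma. MiR-222 was not among the tested plasma miRNAs, so the plasma share leaves this pair out. In kidney the log2 ratio averaged 2.15 ± 0.14 in CI-AKI and 2.28 ± 0.15 in control pools (SD, n = 4 each), a difference of -0.13 (SE 0.10, two-sided exact permutation p = 0.171, adjusted p = 0.171). In plasma it averaged 0.997 ± 0.59 in CI-AKI and 1.58 ± 0.16 in control pools (SD, n = 4 each), a difference of -0.58 (SE 0.31, two-sided exact permutation p = 0.0571, adjusted p = 0.0762). Within plasma pools of the same number the ratio was lower in CI-AKI in 4 of 4 pairs (exact sign-flip permutation test, p = 0.125, the smallest that 4 pairs can give, adjusted p = 0.167). The log2 differences were -1.46, -0.368, -0.304 and -0.182 in pools 1 to 4. In the last pair miR-222 was not detected in either group, and miR-221 was not detected in control. CI-AKI pool 1, with a ratio of 1.12, stood lowest, and without it the plasma difference was -0.30 (adjusted p = 0.152, exact permutation test).

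Without pool 4 of both plasma groups, where miR-222 was not detected, the ratios of the 3 CI-AKI pools lay between 1.12 and 2.36 and those of the 3 control pools between 2.55 and 3.07, with no overlap. The log2 difference was then -0.71 (exact permutation test, two-sided, p = 0.1, the smallest that 3 against 3 arrays can give), and 15.9% of all pairs of tested plasma miRNAs, which leave out miR-222, were as cleanly separated on these arrays. With the deposited total signal per miRNA the difference was 0.06; in those values, plasma pool 4 read 1.64 for miR-221 and 1.59 for miR-222 in control and 1.65 for miR-222 in CI-AKI plasma, none of them detected. With the other tissue's letters deciding treatment, an alternative chosen after the data were seen, it was 0.49 in plasma (exact permutation test, adjusted p = 0.200) and 0.08 in kidney (adjusted p = 0.486).

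**Figure D4:**
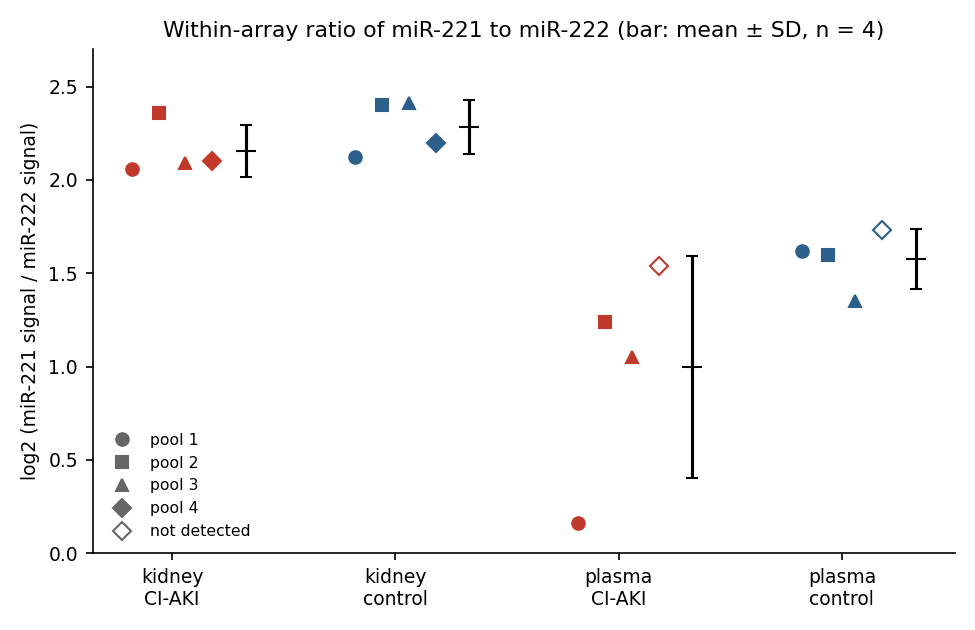
Log2 of miR-221 signal over miR-222 signal on the same array (vertical axis) for kidney CI-AKI, kidney control, plasma CI-AKI and plasma control pools. Each symbol is 1 pool, hollow where miR-222 or both miRNAs were not detected, with the mean ± SD of 4 pools beside them; all kidney pools lie above all plasma pools, and the lowest plasma ratio, 1.12, is that of CI-AKI pool 1.

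Whether the pair varied together from pool to pool was examined over the 8 arrays of each tissue. In kidney, Pearson's r between the log2 scaled signals was 0.455 (exact permutation p = 0.259, adjusted over both tissues 0.259) and Spearman's rho 0.286 (exact permutation p = 0.501, adjusted 0.501). In plasma r was 0.534 (exact permutation p = 0.171, adjusted 0.259) and rho 0.548 (exact permutation p = 0.171, adjusted 0.342). Neither passed, and without the 2 arrays farthest from the median of miR-221, which were pool 2 of both groups, r in plasma was -0.08. In kidney it was 0.347 without CI-AKI pool 4 and control pool 3.

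In kidney miR-222 ranked 35th of 162 miRNAs by its correlation with miR-221, where the median r was 0.229. In plasma its r ranked 16th when set against 74 miRNAs, where the median r was 0.0919. The miRNAs it was set against were those detected on every array of the tissue, which in plasma include neither member of the pair. Seen from miR-222, miR-221 ranked 53rd of 162 in kidney, with a median r of 0.215, and 9th against the 74 in plasma, with a median r of -0.02. The pair thus stood above the median miRNA from both sides in each tissue. Arrays of a tissue share their scaling, which enters all of these correlations, and without scaling r was 0.932 in kidney and 0.965 in plasma.

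**Figure D5:**
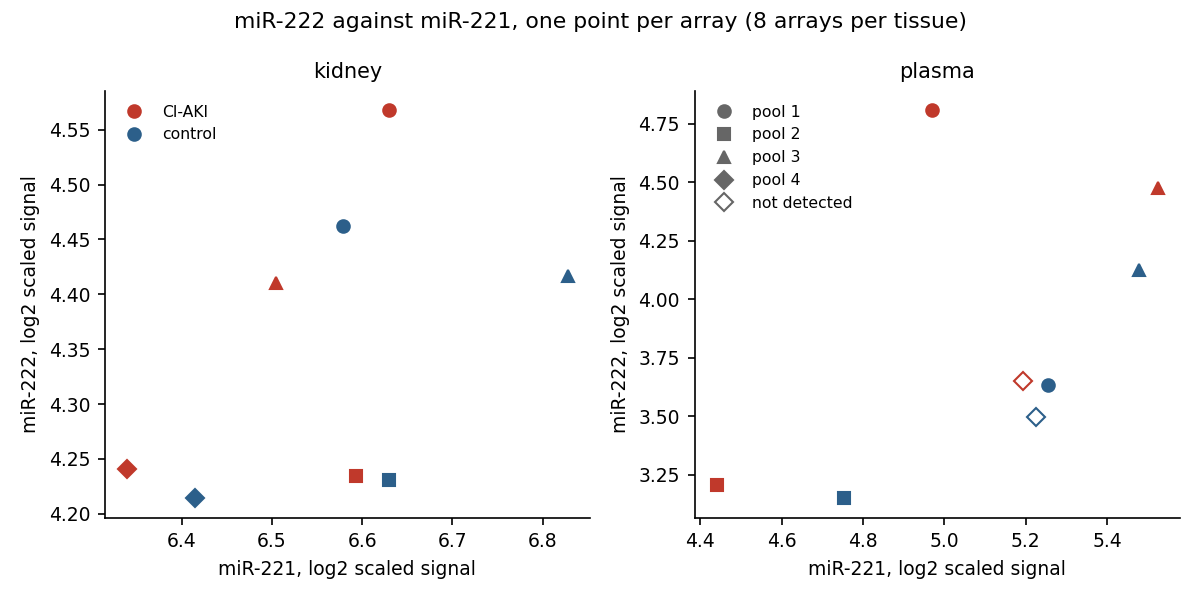
Log2 scaled signal of miR-222 (vertical axis) against that of miR-221 (horizontal axis) in kidney (left) and plasma (right), 1 point per array, with CI-AKI and control pools in different colours and pools by symbol; hollow symbols mark arrays where miR-222 or both were not detected. In plasma, pool 2 of both groups lies lowest on both axes and CI-AKI pool 1 highest on the vertical axis.

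The miRNAs whose pool-to-pool pattern was most like each member were named by Pearson's r over 8 arrays, as a description. They were sought among the miRNAs detected on all 8 arrays of the tissue. For miR-221 in kidney these were miR-301a at 0.848, miR-19a at 0.796, miR-130a at 0.771, miR-347 at 0.770 and miR-340-3p at 0.746. For miR-222 in kidney they were miR-664 at 0.968, miR-139-3p at 0.886, miR-101b at 0.848, miR-347 at 0.846 and miR-140* at 0.814. The 2 lists thus shared miR-347 alone.

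In plasma miR-221 was most like miR-146a at 0.890, miR-92a at 0.865, miR-17-5p at 0.769, miR-21 at 0.755 and miR-19b at 0.711. MiR-222 in plasma was most like miR-342-3p at 0.816, miR-25 at 0.724, miR-188 at 0.694, miR-139-3p at 0.684 and miR-140* at 0.579. These lists were drawn with plasma pool 4, where miR-222 was not detected in either group and miR-221 not in control. Without pool 4 the same miRNAs stood at 0.938, 0.896, 0.864, 0.786 and 0.758 for miR-221. For miR-222 they stood at 0.845, 0.824, 0.737, 0.681 and 0.539. The plasma lists shared no miRNA, while miR-139-3p and miR-140* stood in the list of miR-222 in both tissues.

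Other miRNAs of the vessel wall gave context for the pair. In kidney, 106 of all 176 tested miRNAs had higher means in CI-AKI than in control pools. Of 7 endothelial-enriched miRNAs, 6 did and 0 passed, with a median log2 difference of 0.09, against 0.03 over all 176 tested. They were miR-126 at -0.01, its passenger strand miR-126* at 0.09, and the miR-23, miR-27 and miR-24 cluster members miR-23a at 0.08, miR-23b at 0.05, miR-27a at 0.25, miR-27b at 0.15 and miR-24 at 0.19. In plasma, 39 of all 96 tested miRNAs had a higher mean in CI-AKI. Of the 7 endothelial-enriched ones, 1 did and 0 passed, with a median of -0.24, against -0.09 over all 96 tested. Their summed scaled signal was 3975 to 4349 in CI-AKI kidneys and 3781 to 4027 in control kidneys, and 5595 to 7459 in CI-AKI plasma and 7188 to 8247 in control plasma.

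Between tissues the endothelial-enriched miRNAs did not move one way on the common scale. The median over all tested miRNAs on that scale was -0.59 in CI-AKI and -0.40 in control pools, and it moved with the scaling. Differences of the list members under other scalings are not given here, so their directions hold for this scale only. In CI-AKI pools 3 passed higher in kidney than in plasma, miR-126 at 1.31, miR-23b at 1.39 and miR-27b at 0.515. Another 3 passed lower, miR-23a at -1.69, miR-27a at -1.39 and miR-24 at -0.915, while miR-126* at -0.219 did not pass. In control pools 2 passed higher and 4 lower. Over all tested miRNAs 29.3% passed higher and 45.3% lower in CI-AKI pools, and 32.6% and 44.9% in control pools. The 3 miRNAs of the smooth muscle list, miR-143, miR-145 and miR-21, all passed lower in kidney in both treatments on this scale. Their medians were -1.07 in CI-AKI and -1.37 in control pools. MiR-21 had the smallest differences of them, at -0.70 and -0.66, near those of miR-221. MiR-145 was not detected on every array of either plasma group. Erythroid miRNAs passed lower for 3 of 3, with medians of -4.43 and -4.08. The differences of miR-221, at -0.65 in both treatments, and of miR-222, at -1.80 and -1.35, were smaller in size than these erythroid medians. The erythroid members themselves spread widely. MiR-451 was at -5.19 and -5.49, miR-144 at -4.43 and -4.08, and miR-16 at -1.82 and -1.93, close to miR-222 in CI-AKI pools. Leukocyte miRNAs spread as widely. Of 5 tested, 5 passed lower in CI-AKI and 4 in control pools, with medians of -4.79 and -4.5. Among them miR-146a, at -1.15 and -1.37, was close to miR-222 in control pools. MiR-142-3p, at -0.843 and -0.621, was close to miR-221 and did not pass in control pools. The platelet miRNA tested, miR-223, was at -5.35 and -5.61.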

How the data were processed

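MiRNAs were measured on 1-colour Agilent arrays, 16 in all. Per the file headers, Agilent Feature Extraction 10.7.3.1 read the intensity of each spot and subtracted background; the deposited files also give a total signal and a detection call per miRNA. The authors' deposited table holds log2 values with a median of 2.28 in each column and nearly equal quantiles on all arrays; how it was made is not given in the sources used here, and it served as an alternative. Processed signals were averaged over spots without outlier flags, then over probes, and divided by each array's 75th percentile, taken over miRNAs that every compared array detected (163 in kidney, 74 in plasma, 65 over both). Values under a floor (1.79 in kidney, 0.976 in plasma and 1.31 over both) were set to it, and log2 was taken; no value of the pair lay at the floor or was saturated.

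Groups came from the sample titles. A miRNA was tested where all 4 arrays of 1 or more of the compared groups detected it, with limma 3.58.1 in R 4.3.3 (lmFit and eBayes); p-values were two-sided and adjusted by Benjamini-Hochberg, at a threshold of 0.05; the code was tested on simulated data. A treatment was fitted within its tissue, and tissues and their interaction over all 16 arrays, taken as independent although the tissues shared rats. Between same-numbered kidney and plasma pools of a treatment r was -0.0457 to 0.324. Ratios and correlations were tested by exact permutation in Python 3.11.15 with scipy 1.17.1. Same-numbered plasma pools deviated together (r = 0.224 to 0.619 over miRNAs), so they were also tested as pairs, by the numbers in the titles. In kidney r was -0.0999 to 0.588. The titles state no pairing. Same-numbered pools of a tissue lay side by side on the slide, so position and a shared origin cannot be told apart. Alternatives were other backgrounds, scalings, summaries and detection filters, the authors' table, blocks for slide row and replicate, each pool left out, plasma pool 4 left out (with the scaling redone or kept), paired tests in plasma, and treatment by letter code; the kept scaling, the paired tests and the ratio by letter code were chosen after the data were seen. Named besides the pair are the 5 miRNAs most correlated with each member per tissue and members of 6 marker lists, up to 4 of each list and all of the endothelial one. The members and lists were chosen with earlier results of these data known. The number of arrays limits the precision.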

Additional observations from a re-analysis of the deposited data

Results flagged for a closer look

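Within the 4 pools of each group, the 12 sets of values (miR-221, miR-222 and their ratio in each group) were examined for a pool far from the others. In CI-AKI kidneys, the log2 ratio of miR-221 to miR-222 of pool 2 stood apart: the gap to the next pool was 0.867 of the whole range, above Dixon's 95% critical value for 4 samples. The ratio was 5.13 in that pool and 4.17, 4.27 and 4.28 in the others, and without it the kidney difference between CI-AKI and control was -0.20 in place of -0.13 (exact permutation test, adjusted p = 0.0571). That is also the smallest unadjusted p possible once 1 pool is left out, so it could not pass. Chance marks about 1 in 20 such sets.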

How the results depend on the processing

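Neither member passed CI-AKI against control in either tissue, or the test of the difference between tissues, in any alternative that tested it; plasma miR-222 was tested in 7 of 27 alternatives and its kidney minus plasma effect in 7 of 33. Leaving out arrays also redid the scaling over another set of miRNAs, unless it is said to be kept. Several signs were not settled. In kidney, miR-222 turned to -0.010 without scaling, -0.069 with quantile normalization and -0.065 in the authors' values, and by the other tissue's letters miR-221 was at 0.058 and miR-222 at -0.019. In plasma, miR-221 turned to 0.63 with normexp, 0.071 with median scaling, 0.25 with total signal, 0.070 without pool 4 of both groups and 0.13 by letters, and miR-222, at 0.43, moved to -0.36 by letters and was 0.075 without scaling, 0.075 with spike-in scaling, 0.19 with total signal and 0.95 with normexp. The effect on miR-221 in kidney minus that in plasma turned to -0.72 with normexp, -0.12 with median scaling, -0.39 with total signal, -0.094 in the authors' values and -0.14 without plasma pool 4. Leaving out 1 pool gave -0.16 to -0.037 for kidney miR-221, -0.036 to 0.076 for kidney miR-222, -0.31 to 0.052 for plasma miR-221, 0.17 to 0.71 for plasma miR-222, and -0.20 to 0.16 and -0.69 to -0.20 for the kidney minus plasma effects of miR-221 and miR-222. Kidney minus plasma in CI-AKI pools, miR-221 turned to 0.14 with the percentile over all miRNAs, 0.26 with quantile normalization, 1.53 without scaling, 0.13 with spike-in scaling and 0.22 in the authors' values, and no longer passed at -0.21 with median scaling, -0.65 with total signal, -0.59 with only these 2 groups fitted and -0.45 without plasma pool 4. In control pools it turned to 1.39 without scaling, 0.16 with quantile normalization and 0.31 in the authors' values, and no longer passed at -1.16 with normexp, -0.087 with the percentile over all miRNAs, -0.092 with median scaling, -0.26 with spike-in scaling, -0.26 with total signal and -0.31 without pool 4. MiR-222 turned to 0.38 in CI-AKI and 0.48 in control pools without scaling, and no longer passed with quantile normalization (-0.69 and -0.075) or the authors' values (-0.46 and -0.0054), nor with normexp in control pools (-1.54). Without 1 pool, miR-221 ranged from -0.81 to -0.49 in CI-AKI and -0.79 to -0.49 in control pools, where it did not pass without plasma control pool 4 (adjusted p = 0.0664), and miR-222 from -2.05 to -1.55 and -1.50 to -1.19. The ratio of the pair passed with the brightest probe alone, at -0.81 for plasma CI-AKI minus control and 1.13 and 0.51 for kidney minus plasma in CI-AKI and control pools. The tissue differences were no larger there than in the main result, where they already had the smallest p. They passed because the plasma treatment comparison reached that p too, which lowered the adjusted p of each (0.0381, exact permutation test). It turned in plasma with total signal (0.060), and by letters in kidney (0.077) and plasma (0.49). Without 1 pool it was -0.20 to -0.085 in kidney and -0.76 to -0.30 in plasma, and between tissues 0.88 to 1.34 and 0.63 to 0.76. Over the other alternatives the ratio between tissues kept its sign, at 0.46 to 1.34 in CI-AKI and 0.32 to 1.13 in control pools. Its adjusted p in the exact permutation test reached 0.629 and 0.571. The correlation of the pair passed with normexp in plasma (0.993) and without scaling in kidney (0.932) and plasma (0.965). The causes of these changes were not tested. With the replicate block, adjusted p was 0.789 for plasma miR-221, 0.00672 and 0.00655 for miR-221 between tissues and, with detection on at least 1 array asked, an alternative chosen after the data were seen, 0.892 for plasma miR-222 and 0.92 for its kidney minus plasma effect; the paired test of the plasma ratio gave an adjusted p of 0.167. The block changed none of these calls. The number of kidney miRNAs passing was 3, and 0 to 4 over the alternatives; between tissues 135 and 138 passed, and 78 and 66 did without scaling and 63 did in control pools with normexp. For the kidney minus plasma effect 1 passed, and 0 to 4 did over the alternatives. In plasma 0 passed under each. Where a filter asked for detection on every array, the pair was tested in kidney only.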
